A study of Arabidopsis thaliana with 4 samples.

Results

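Lipid transfer proteins are small, secreted plant proteins whose conserved cysteines form disulphide bridges around a cavity that can hold a fatty acid or another lipid. Some are soluble in the cell wall, some are tethered to the outer face of the plasma membrane by a glycosylphosphatidylinositol (GPI) anchor, and in others the cysteine domain follows a proline-rich stretch. They are known for carrying lipids towards the cuticle and suberin, the waterproof layers of shoot and root surfaces, and a few of them take part in systemic immunity.

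The 57 loci described here were chosen by family: type 1 and type 2 lipid transfer proteins, GPI-anchored ones (LTPGs), the cluster that holds AZI1 and EARLI1, and related cysteine-rich or proline-rich proteins. They were put forward with earlier DEX against mock results of these same arrays known, so the differences below describe these loci and are no independent support for a family response. A locus was represented by its brightest probe set paired with that gene alone in the array annotation, by mean signal over the 4 arrays. In practice no locus had more than 1 such probe set. Of the 57 loci, 25 had one, 5 were reached only through 3 probe sets that several genes share and 27 were paired with no listed probe set. LTP1 to LTP7, LTPG1, LTPG2, DIR1, AZI1 and EARLI1 were among the loci not analysed here. The annotation used here held 14016 probe sets, against 22810 on each array. A locus that it left unpaired may still have a probe set on the array.

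Both groups were Arabidopsis thaliana seedlings carrying 35S::Dof3.2-GR. In that line a constitutive viral promoter drives the Dof zinc finger transcription factor Dof3.2 fused to the steroid-binding part of a glucocorticoid receptor, which keeps such fusions out of the nucleus until dexamethasone (DEX) is added. All seedlings were kept at 22 °C, for 4 days on agar (1% sucrose, kanamycin at 50 µg/ml) and for another 4 days in shaken liquid culture. One group then received 10 µM DEX for 3 h and the other a mock treatment, with 2 one-colour Affymetrix arrays each. The comparison asks which of these loci differ in transcript level within 3 h of releasing the fusion. Seedlings lacking the fusion were not analysed here, so a response to DEX itself cannot be told apart from one to the fusion. The labels do not say how many lines were used or whether replicates came from separate cultures. Each p-value thus reflects array-to-array spread alone, some of which may be technical.

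Every array had 22810 MAS5 signals with a median of 190.6 to 193.3. Signals are on a linear, arbitrary scale set per array, and each probe set has its own response, so signals of different genes are not set against each other. Of 6 ratios of 3′ to 5′ signal in control genes, a sign of RNA integrity, 5 overlapped between groups. The sixth, one of the ubiquitin ratios, was 1.37 on both DEX arrays against 1.58 and 1.48 on the mock arrays. The part of this difference in the results was not tested.

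After DEX, 2 of the 20 member loci bright enough to test had fallen and none had risen. These were AT4G22610, of the cysteine-rich genes on chromosome 4, and AT5G01870, a type 1 lipid transfer protein gene also called LTP10. The remaining 18 did not pass the threshold, an adjusted p of 0.05 in limma with Benjamini-Hochberg adjustment over all 13648 probe sets tested. Of those probe sets, 0.293% passed as higher and 0.293% as lower in DEX. The choice of the loci drew on the same contrast, so nothing is read from the members' count against that share. When dim probe sets were tested too, 0 member loci passed as lower. Over all 22746 probe sets then tested, 15 passed as higher and 10 as lower. Member counts from fits without 1 array are not given, as 1 group then holds a single array.

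AT4G22610 had signals of 214.3 and 211.5 in DEX seedlings, against 412.3 and 417.9 in mock seedlings. Replicates differed by 0.019 on the log2 scale in DEX and 0.020 in mock seedlings. Over all probe sets tested the medians of such gaps were 0.12 and 0.16. The spread of 2 arrays is itself uncertain, so the SE below, which also draws on the other probe sets, is the better guide. The mean was 212.9 ± 1.96 in DEX and 415.1 ± 4.00 in mock seedlings (SD, n = 2 each), a 1.95-fold fall. The log2 change was -0.96 ± 0.14 (SE), with a 95% interval from -1.27 to -0.66 and an adjusted p of 0.0188 in limma. It stood 34th from the lowest log2 change among the probe sets tested. The adjusted p in limma was 0.0614 when dim probe sets were tested too. Leaving out 1 array at a time gave a log2 change between -0.97 and -0.95. As both DEX arrays lay below both mock arrays, this could not turn its sign. The filter, variance and block settings leave a log2 change as it is, so they do not test its size. A fit without 1 array takes its spread from 1 group alone, so no adjusted p is read from it.

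AT5G01870 had signals of 1602 and 1628 in DEX seedlings, against 2540 and 2395 in mock seedlings. Both DEX values again lay below both mock values, by more than the replicates of either group differed. The mean was 1615 ± 18.2 in DEX and 2467 ± 102 in mock seedlings (SD, n = 2 each). This 1.53-fold fall was the smallest change that passed anywhere on the array, with a log2 change of -0.61 ± 0.10 (SE) and an adjusted p of 0.0361 in limma. The 95% interval of the log2 change ran from -0.84 to -0.38. Its adjusted p in limma was 0.0834 with dim probe sets tested and 0.129 with a variance model that did not follow the mean. Leaving out 1 array at a time gave a log2 change between -0.65 and -0.57, and no adjusted p is read from those fits.

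**Figure D1:**
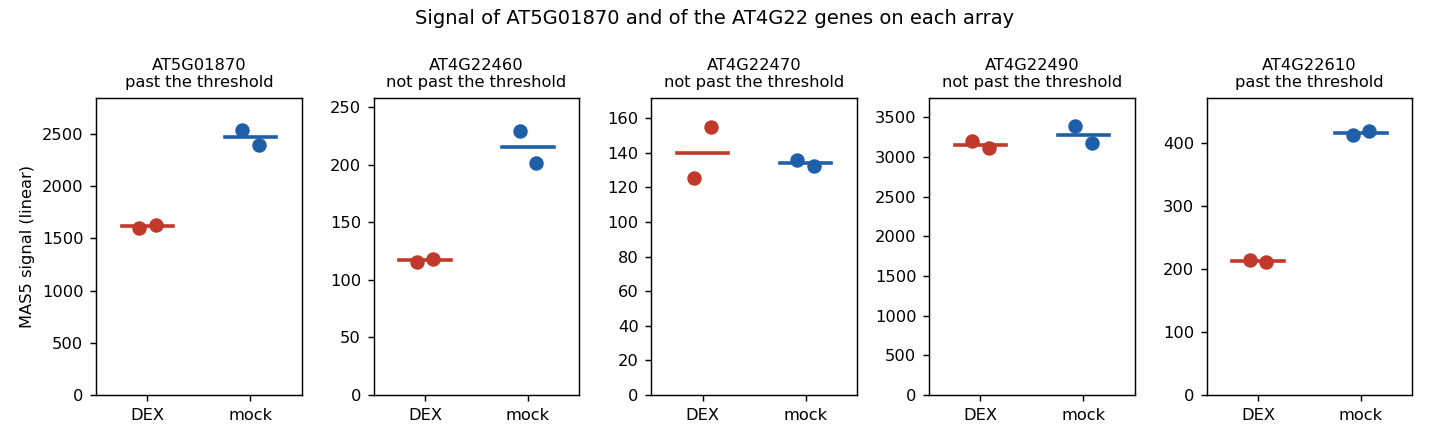
MAS5 signal (vertical axis, linear, from 0, with a scale of its own for each locus) of AT5G01870 and of the 4 measured genes of the AT4G22 group on each array. Points are arrays, 2 for DEX (left, red) and 2 for mock (right, blue), and bars are group means. DEX and mock points are apart in AT5G01870, AT4G22460 and AT4G22610, whereas in AT4G22470 and AT4G22490 they overlap.

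AT4G22610 belongs to a group of related genes on chromosome 4 in which all 4 listed loci were measured. In the RefSeq annotation of assembly TAIR10.1, 2 protein-coding genes lie between AT4G22460 and AT4G22470, another 2 between AT4G22470 and AT4G22490, and 14 between AT4G22490 and AT4G22610. AT4G22460 had signals of 115.7 and 118.1 in DEX seedlings, against 229.1 and 201.8 in mock seedlings. These groups did not overlap either, but the locus did not pass. Its log2 change was -0.88 ± 0.17 (SE), with a 95% interval from -1.26 to -0.50 and an adjusted p of 0.0639 in limma. It passed without a variance trend (adjusted p = 0.0438, limma) and with the replicate number as a block (adjusted p = 0.0244, limma). Without mock replicate 1 and 2 its log2 change was -0.79 and -0.97. Its DEX signals lay close to the filter level of 111, where MAS5 signals are noisy, so the size of its change is uncertain.

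Of the 20 protein-coding genes between AT4G22460 and AT4G22610, the listed AT4G22490 and AT4G22470 had other values. AT4G22490 had signals of 3195 and 3119 in DEX seedlings, against 3390 and 3170 in mock seedlings, with overlapping groups. Its log2 change was -0.055 ± 0.10 (SE), and the 95% interval from -0.28 to 0.17 did not meet that of AT4G22610. AT4G22470 had signals of 125.6 and 154.6 in DEX seedlings, against 135.8 and 132.2 in mock seedlings, where the mock values lay within the DEX range. Its log2 change was 0.057 ± 0.19 (SE), with a 95% interval from -0.36 to 0.47. Its signals too lay near the filter level. The difference between these genes in their response was not itself tested.

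The type 1 lipid transfer proteins are the soluble, basic forms abundant in epidermal tissue, and besides AT5G01870 only AT2G18370, also called LTP8, could be tested among them. AT2G18370 had signals of 425.4 and 571.4 in DEX seedlings, against 420.4 and 389.7 in mock seedlings. The DEX arrays both lay above the mock arrays, 1 of them only just. Its log2 change of 0.28 ± 0.16 (SE) did not pass (adjusted p = 0.642, limma), and its 95% interval of -0.071 to 0.64 did not meet that of AT5G01870. Whether AT2G18370 and AT5G01870 differ in their response was not itself tested. In this group of 12 listed loci, 9 had no probe set of their own.

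In the LTPG group, proteins held on the cell surface by a GPI anchor or predicted to be, 0 of 5 tested loci passed, and 0 had an unadjusted p under 0.05 in limma. AT2G48130, also called LTPG15 and linked to suberin of the seed coat, had signals of 581.7 and 518.9 in DEX seedlings, against 461.7 and 441.4 in mock seedlings. All DEX values exceeded all mock values, at a log2 change of 0.28 ± 0.13 (SE) with an unadjusted p of 0.0509 and an adjusted p of 0.543. AT3G22620 had signals of 1151 and 1184 in DEX seedlings, against 1390 and 1187 in mock seedlings. AT1G62790 had 1303 and 1370 in DEX seedlings, against 1426 and 1521 in mock seedlings. In both the DEX arrays were the lower ones, with log2 changes of -0.14 ± 0.12 and -0.14 ± 0.11 (SE). AT2G44300 and AT3G58550 had overlapping groups and log2 changes of 0.085 and -0.0080. The 95% intervals of all 5 lay between -0.40 and 0.57.

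Type 2 proteins are a smaller form of the family, and DIR1, a carrier needed for systemic acquired resistance, is related to them. None of the 3 tested loci here passed. AT1G48750 had signals of 1265 and 1164 in DEX seedlings, against 1447 and 1334 in mock seedlings, with the DEX arrays lower and a log2 change of -0.20 ± 0.11 (SE). AT3G18280 had 1316 and 1334 in DEX seedlings, against 1314 and 1359 in mock seedlings, with a log2 change of -0.012 ± 0.10 (SE). AT5G48490, the close relative of DIR1 known as DIR1-LIKE, had 1986 and 1660 in DEX seedlings, against 2172 and 1796 in mock seedlings. Its replicates differed more than its groups did, at a log2 change of -0.12 ± 0.13 (SE) and a 95% interval from -0.42 to 0.17.

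AZI1 and its neighbours on chromosome 4 encode proline-rich proteins with a lipid transfer domain, and AZI1 itself is known for priming systemic immunity in response to azelaic acid. Of the 9 loci listed there, AT4G12490 and AT4G12500, also called AZI3 and AZI4, could be tested, and both had overlapping groups. AT4G12490 had signals of 252.1 and 293.8 in DEX seedlings, against 241.8 and 310.9 in mock seedlings, and a log2 change of -0.011 ± 0.17 (SE). AT4G12500 had 93.7 and 131.3 in DEX seedlings, against 155.9 and 111.7 in mock seedlings, and a log2 change of -0.25 ± 0.24 (SE). It was the member just inside the filter, with a mean log2 signal of 6.92 against a limit of 6.79. Just outside it was AT1G12100, of the proline-rich group, at 5.83.

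The last group holds proline-rich and other cysteine-rich proteins, of which 0 of 4 tested loci passed. AT2G45180, known as DRN1 and linked to defence, had signals of 14853 and 13323 in DEX seedlings, against 17597 and 15411 in mock seedlings. Both DEX arrays were lower, with a log2 change of -0.23 ± 0.12 (SE) and an adjusted p of 0.609 in limma. AT2G10940 had 6142 and 4698 in DEX seedlings, against 6132 and 4586 in mock seedlings. Its replicates spread widely in both groups while the group means lay close, at a log2 change of 0.019 ± 0.16 (SE). AT1G62500, known as CO2 and used as a marker of the root cortex, had 759.9 and 799.3 in DEX seedlings, against 781.0 and 961.8 in mock seedlings, at a log2 change of -0.15 ± 0.13 (SE).

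AT1G62510, directly next to AT1G62500 among the protein-coding genes of chromosome 1, had a change that turned on which mock array was used. Its signals were 620.4 and 612.1 in DEX seedlings, against 653.5 and 377.0 in mock seedlings. The DEX values lay between the mock values, which differed by 0.79 on the log2 scale, the widest gap between mock replicates of any tested member. The log2 change was 0.31 ± 0.22 (SE) with all arrays. It was 0.71 without mock replicate 1 and -0.085 without mock replicate 2.

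**Figure D2:**
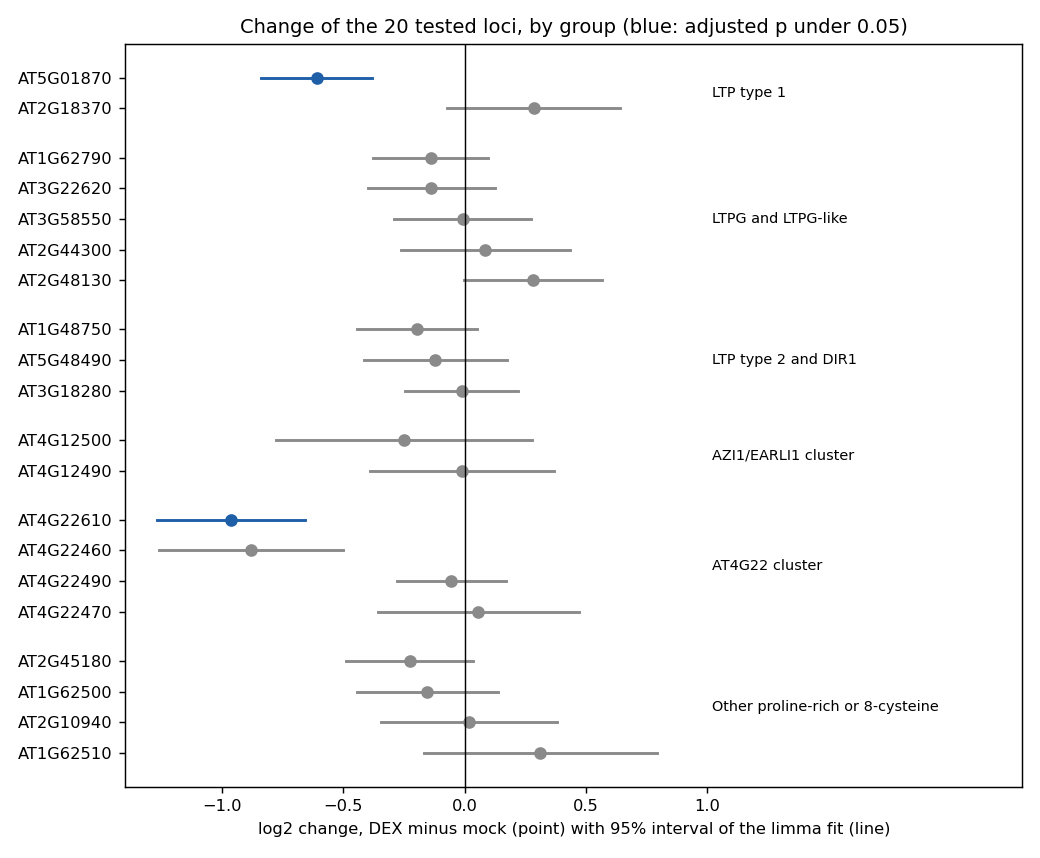
Fitted log2 change, DEX minus mock (horizontal axis), of the 20 tested loci, with 95% intervals of the limma fit as lines and loci in their groups down the page. The 2 loci in blue, AT5G01870 and AT4G22610, passed an adjusted p of 0.05. AT4G22460 has an interval below 0 without passing, and the intervals of the other 17 loci include 0.

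Across the 20 tested loci the log2 changes ran from -0.96 to 0.31 with a median of -0.088, beside -0.0065 over all probe sets tested. The quartiles were -0.20 and 0.028 for the members and -0.12 and 0.11 for all probe sets tested. The change was below 0 in 14 of the 20 loci (70%), beside 51.8% of all probe sets tested. Of the 14, AT3G58550 turned to 0.0027 with centring on the median. The size of the change was under 0.25 in 13 of the 20 loci. Both DEX arrays lay below both mock arrays in 7 loci (35%), beside 21.1% of all probe sets tested. They lay above them in 2 loci (10%), beside 18.2%. The loci were chosen with this contrast known, so nothing is read from these shares. An unadjusted p under 0.05 was seen in 3 loci, AT4G22610, AT5G01870 and AT4G22460, beside 9.25% of all probe sets tested. A locus passed the filter by its mean over all arrays, so the median covers the measured and bright loci and not the 57. For 18 of the 20 the 95% interval lay within a 2-fold change in either direction. The exceptions were AT4G22610 and AT4G22460, and the SE of the log2 change had a median of 0.13 over the members. With 2 arrays in each group the smallest two-sided p that an exact permutation test of a single locus can give is 0.333.

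**Figure D3:**
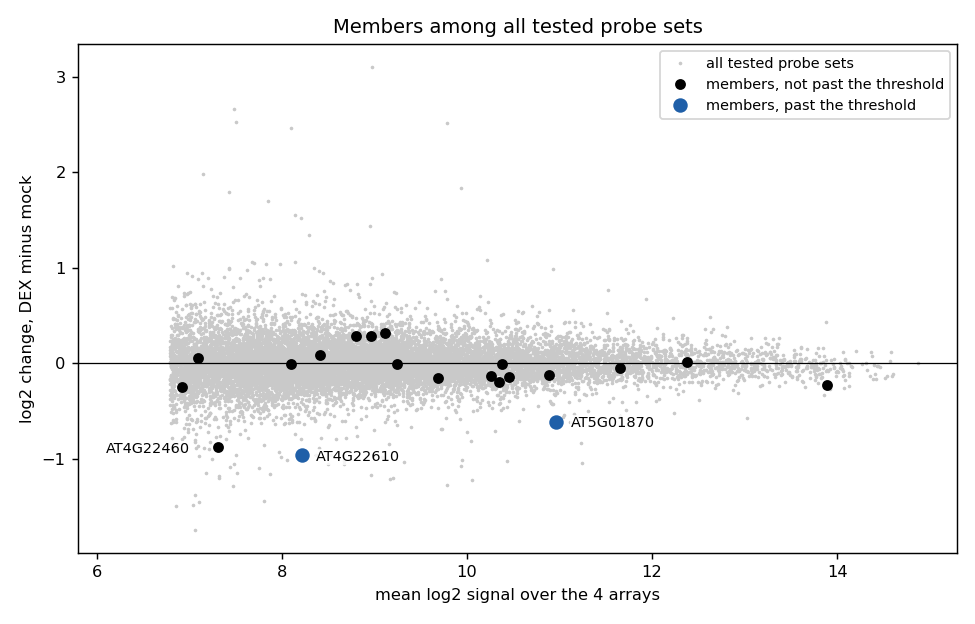
Log2 change, DEX minus mock (vertical axis), against the mean log2 signal over the 4 arrays (horizontal axis) for the 13648 tested probe sets (grey), the 18 tested members that did not pass (black) and the 2 that passed (blue). AT4G22610 and AT5G01870 lie at the lower edge of the probe sets of like signal, and most black points lie inside the grey band.

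The 5 dim loci lay below the filter, where differences between signals have little meaning. AT5G09370 had signals of 6.01 and 7.93 in DEX seedlings, against 18.0 and 16.9 in mock seedlings. AT4G12530 of the AZI1 cluster had 9.10 and 9.52 in DEX seedlings, against 14.7 and 33.4 in mock seedlings. AT4G08530, a type 1 locus, had 19.6 and 20.1 in DEX seedlings, against 30.4 and 23.0 in mock seedlings. AT1G36150 had 3.02 and 3.29 in DEX seedlings, against 5.42 and 3.01 in mock seedlings, with overlap. AT1G12100 had 53.5 and 63.7 in DEX seedlings, against 55.0 and 55.3 in mock seedlings, also with overlap. How often dim probe sets of the whole array lack overlap was not examined, so no direction is read from these 5 loci. None of the 25 measured loci passed in limma when all probe sets were tested, in either direction.

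Genes that make or export the lipids of cuticle and suberin, and genes of systemic immunity, were listed beside the family. The annotation used here paired few of them with a probe set of their own. Of 44 cuticle and suberin genes 2 had one and 1 was tested, and it did not pass. This was CER26, which acts in the elongation of very long fatty acids, with a log2 change of -0.096 ± 0.12 (SE). The wax synthase gene WSD1 was dim. Of 17 immunity genes only SARD4, which acts in pipecolate synthesis, was tested, and it did not pass either, at -0.061 ± 0.12 (SE). These values describe 2 genes and not the pathways.

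Whole seedlings hold root and shoot tissues, and in such samples fewer cells of a type and less RNA per cell cannot be told apart. Of 9 root marker genes 2 were measured, PYK10 and EXPA7, and their summed signal was 13789 and 14760 in DEX seedlings, against 13634 and 14223 in mock seedlings. For 4 of 8 green tissue markers the sum was 52051 and 44809 in DEX seedlings, against 50193 and 52826 in mock seedlings. Within these lists, PORB, a chlorophyll synthesis gene among the green tissue markers, had signals of 3700 and 4099 in DEX seedlings, against 4303 and 4830 in mock seedlings, without overlap, and a log2 change of -0.23 ± 0.11 (SE). The root hair gene EXPA7 had 140.2 and 175.2 in DEX seedlings, against 158.1 and 211.0 in mock seedlings, with overlap, and a log2 change of -0.22 ± 0.20 (SE). The other markers of these lists overlapped too. Their log2 changes were 0.038 in PYK10, -0.16 in RCA, -0.080 in LHCB4.2 and 0.089 in PRK. For 2 of 6 shoot epidermis and guard cell markers, FMA and SPCH, the sum was 295.7 and 252.2 in DEX seedlings, against 292.7 and 292.8 in mock seedlings. The sums of these 3 lists overlapped between groups. For 2 of 7 vascular markers, PHV and SWEET11, the sum was 5190 and 5003 in DEX seedlings, against 5605 and 5814 in mock seedlings, without overlap. The 2 genes had log2 changes of -0.12 and -0.17. Such sums follow the probe sets with the highest signal and describe those more than the list. In DEX seedlings PYK10 alone had 13648 and 14584, and SWEET11 alone 4779 and 4604. No marker passed, and the part of these markers in the falls of AT4G22610 and AT5G01870 was not tested. Detection calls were not used, so whether each marker was expressed was not tested.

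**Figure D4:**
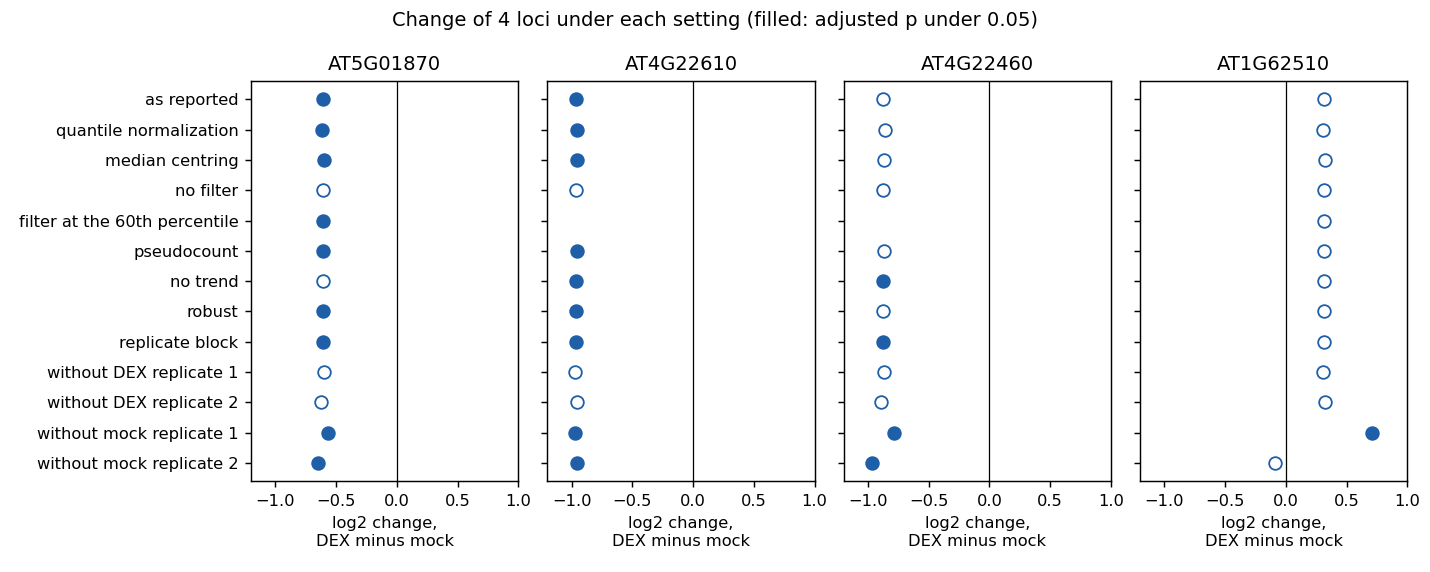
Log2 change, DEX minus mock (horizontal axis), of 4 loci as reported and under each alternative setting (vertical axis), filled where the adjusted p of limma was under 0.05 and open where it was not. AT4G22610 and AT4G22460 have no point at the stricter filter, which left them out. AT5G01870, AT4G22610 and AT4G22460 stay below 0 throughout, whereas AT1G62510 has 0.71 without mock replicate 1 and -0.085 without mock replicate 2. The filter, variance and block settings do not alter a log2 change.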

How the data were processed

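The deposited values are signal intensities on a linear scale, made by the authors with MAS5, per the submitters' processing notes. For its version and parameters, nothing is given in the sources used here. The method subtracts background and mismatch signal and scales each array: after trimming 2% of values at either end, all arrays averaged 500.0. A shift in RNA content per cell is therefore invisible, and detection calls were not used. The 4 columns were matched to samples by accession.

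The 64 control probe sets were dropped, values were put on the log2 scale as they stood, and probe sets whose mean was under the 40th percentile (a signal of 111) were dropped, which kept 13648. Of 14016 annotated probe sets, 13513 were paired with 1 gene and 13436 matched a RefSeq locus (TAIR10.1). Coordinates are not printed because the array's build is not named, and no sequences were analysed here.

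DEX and mock were compared in limma 3.58.1 (R 4.3.3) with a group term and a variance trend, two-sided, adjusted by Benjamini-Hochberg over all kept probe sets. Each test had 9.74 degrees of freedom, 2 of them from the arrays, whose number limits the precision. The fit was also run on simulated data, whose outcome is not reported here and from which nothing is read.

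Members and gene lists were chosen with earlier results of these data known. By rule, array values are given for members that passed, the 3 with the lowest p in each group and the 5 with the highest signal. AT4G22470 and the 5 dim loci were added after their values were seen. Alternatives were quantile normalization, centring on the median, testing all probe sets, filtering at the 60th percentile, adding 2.14 before the log, no variance trend, robust variances, the replicate number as a block, and leaving out each array.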

Additional observations from a re-analysis of the deposited data

How the results depend on the processing

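The 2 falls kept their direction in every alternative that tested them, though many of these could not have turned it. The filter, variance and block settings leave a log2 change as it is. In both loci both DEX arrays lay below both mock arrays, so leaving out 1 array could not turn it either. The count of members lower in DEX, 2 as reported, was 0 without the filter, where 25 loci were tested, and 1 with the 60th percentile filter, which left out AT4G22610. Over all probe sets, 15 were higher and 10 lower without the filter, and 20 and 23 with the 60th percentile filter, against 40 and 40 as reported. Member counts from fits without 1 array are not compared, as 1 group then holds a single array. A fit without 1 array takes its spread from the group that keeps 2. The count of members higher in DEX, 0 as reported, was 0 in every alternative that kept all arrays. The members' median log2 change was -0.14 without the filter, which added 5 dim loci, and -0.11 to -0.017 with 1 array left out. Among the 20 tested loci, signs turned only in changes that had not passed as reported. With centring on the median AT3G58550 stood at 0.0027, and all other turns came with 1 array left out. Under those settings the log2 change ran from -0.085 to 0.71 in AT1G62510, from -0.19 to 0.23 in AT2G10940, from -0.19 to 0.17 in AT4G12490, from -0.26 to 0.015 in AT5G48490, from -0.036 to 0.012 in AT3G18280, from -0.095 to 0.26 in AT2G44300, from -0.087 to 0.071 in AT3G58550 and from -0.094 to 0.21 in AT4G22470. The cause of these changes was not tested. Over 235 recalculated changes of the 20 loci, 13 turned sign. Those under the filter, variance and block settings could not turn, and most loci had no call to lose. The tally is thus no measure of how firm the results are. With the replicate number as a block 3 members were lower, and over all probe sets 98 were higher and 87 lower, against 40 and 40 without it. Deviations of same-numbered arrays correlated at 0.11 across probe sets, from 2 pairs only, which does not show that the numbers pair samples. No locus had several probe sets, so averaging them could not change a value. Among members, a 1.53-fold change was the smallest to pass.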
